A study of Mus musculus with 2 samples.

Results

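Conventional CD4 T cells, the helper T cells of the immune system, were examined in the colon of DSS-treated mice. Dextran sulfate sodium (DSS) damages the gut lining and provokes colitis. Members were chosen by their measured UMIs and were barcodes with at least 500 UMIs (unique molecular identifiers, which count captured RNA molecules), at least 200 detected genes and at most 25% mitochondrial UMIs. They held UMIs of at least 2 of the 5 receptor genes Cd3e, Cd3d, Cd3g, Trac and Trbc2 and of at least 1 of the 3 helper genes Cd4, Izumo1r and Cd40lg. They held no UMI of Foxp3, Cd8a, Cd8b1, Trdc or Cd79a, which mark regulatory T cells, CD8 T cells, gamma delta T cells and B cells. The rule found 475 cells among 17858 kept barcodes, of which 180 of 9734 lay in the Elf-1 KO library and 295 of 8124 in the WT library.

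The Elf-1 KO library was made from the colon of Elf-1-/- mice and the WT library from the colon of WT mice. All mice were C57BL/6, 8-10 weeks old and treated with DSS, and each library pooled colon cells of 3 animals from proximal colon, distal colon and rectum. The sources used here do not give the deleted part of Elf1 or the dose and days of DSS. Elf1 encodes a transcription factor of the ETS family that is abundant in lymphocytes, and the series asks how its loss bears on gene expression in the inflamed colon.

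Helper T cells recognise peptides through the T cell receptor and its CD3 chains, with CD4 as co-receptor, and direct other cells through the cytokines they secrete. Th17 cells make IL-17A, IL-17F and IL-22, which act on epithelium and stroma and draw in neutrophils, and they are a large helper population of the normal gut. Follicular helper cells carry CXCR5, enter B cell follicles and give B cells IL-4, IL-21 and CD40 ligand, while Th1 cells make interferon gamma and Th2 cells IL-4, IL-5 and IL-13.

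Each group had a single library, and cells could not be assigned to animals, so no difference was tested. Every interval is at 95% and covers counting error only, not the spread between cells or mice. Levels within the members are given as CPM, the UMIs of a gene per 1000000 UMIs of all members of a library, and in a sum over cells fewer expressing cells and less RNA per cell cannot be told apart. Members had a median of 1861 UMIs in the Elf-1 KO library (range 576 to 20121) and 1774 in the WT library (516 to 11186), and medians of 943.5 and 880 genes in the Elf-1 KO and WT libraries. The members summed to 530719 UMIs in the Elf-1 KO library and 634639 in the WT library. Of 57 barcodes found in both libraries, 2 were members in the Elf-1 KO library, 2 were members in the WT library and 0 were members in both.

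Markers of several other cell types had higher sums in members of the Elf-1 KO library than in those of the WT library. The 14 neutrophil markers summed to 5696 CPM in Elf-1 KO members, with 0 of the 14 at 0, and to 249 CPM in WT members, with 5 at 0. The 7 erythroid markers summed to 6783 CPM in Elf-1 KO members and 344 CPM in WT members, and the 13 plasma cell markers to 7661 CPM in Elf-1 KO members and 4848 CPM in WT members. The 13 fibroblast markers summed to 4255 CPM in Elf-1 KO members and 578 CPM in WT members, and the 14 macrophage and monocyte markers to 1822 and 514 CPM in Elf-1 KO and WT members. Single cells held large parts of these sums, so that 1 Elf-1 KO cell accounted for 3202 of the 3600 erythroid UMIs, another for 1190 of the 3023 neutrophil UMIs and another for 635 of the 967 macrophage UMIs. Epithelial and mast cell markers lay the other way. The 20 epithelial markers summed to 22.6 CPM in Elf-1 KO members, with 14 at 0, and to 813 CPM in WT members, with 0 at 0. The 10 mast cell and basophil markers summed to 9.42 CPM in Elf-1 KO members and 960 CPM in WT members, where 1 cell held 577 of the 609 UMIs. Leaving out members with UMIs of at least 2 markers of 1 other class kept 90 Elf-1 KO and 271 WT members, and values in these cells are given beside the main results. A background bound was set for each gene and library as the lowest mean UMIs per cell among 6 gated classes of other cells, which free RNA can reach.

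**Figure D1:**
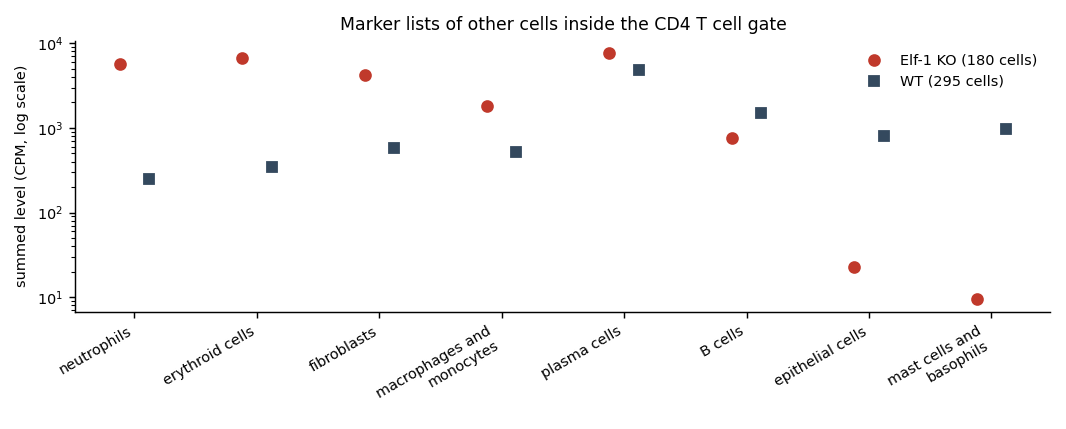
Summed level of marker genes of 8 other cell types within the members of the Elf-1 KO library (circles) and the WT library (squares), in CPM on a log axis. Neutrophil markers stand at 5696 CPM in Elf-1 KO members and 249 CPM in WT members, while epithelial markers stand at 22.6 and 813 CPM in Elf-1 KO and WT members.

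Conventional CD4 T cells made up a smaller part of the Elf-1 KO library. They were 1.85% of kept barcodes in the Elf-1 KO library (exact Clopper-Pearson interval 1.59% to 2.14%) and 3.63% in the WT library (3.24% to 4.06%), a 1.96-fold lower share (1.63 to 2.38). Among barcodes with at least 2 of the 5 receptor genes, 24.0% of 751 were members in the Elf-1 KO library and 34.7% of 851 in the WT library. The other gated T cells differed in direction. CD8 T cells numbered 96 in the Elf-1 KO library and 174 in the WT library, gamma delta T cells 113 and 35 in the Elf-1 KO and WT libraries, and regulatory T cells 95 and 59 in the Elf-1 KO and WT libraries. The ratio of the member share was 0.509 of Elf-1 KO over WT, 0.671 where a Cd4 UMI was required, and 0.277 in the cells without markers of other classes.

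The 3 helper genes that admitted a cell did so in different proportions in the 2 libraries, which is a description of the gate and not a finding. Cd4 itself was detected in 119 Elf-1 KO members (66.1%) and 148 WT members (50.2%). Izumo1r, the folate receptor family gene that encodes FR4 of helper T cells, was detected in 55 Elf-1 KO members (30.6%) and 199 WT members (67.5%). Cd40lg, the ligand through which helper cells license B cells, was found in 48 Elf-1 KO members and 92 WT members. A UMI of Cd4 alone admitted 80 Elf-1 KO cells and 49 WT cells, and Izumo1r alone 34 Elf-1 KO cells and 88 WT cells. Just outside the gate, 240 Elf-1 KO and 226 WT barcodes had enough receptor genes and none of the 3 helper genes, with median depths of 1403.5 and 1516 UMIs in the Elf-1 KO and WT libraries. Another 26 Elf-1 KO and 20 WT barcodes had a helper gene and only 1 receptor gene, with medians of 1513.5 and 2045 UMIs in the Elf-1 KO and WT libraries. Trac, the constant part of the receptor alpha chain and one of the gate's 5 receptor genes, was found in 141 Elf-1 KO members (78.3%) and 263 WT members (89.2%).

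Tcf7, the marker that the gate did not use, was found in fewer Elf-1 KO members. It encodes TCF-1, a factor of naive, memory and follicular helper T cells. It had 112 UMIs in 50 Elf-1 KO members (27.8%) and 472 UMIs in 177 WT members (60.0%), or 211 CPM in Elf-1 KO members and 744 CPM in WT members, 3.52-fold lower (2.86 to 4.37). In fibroblasts, which should lack it, 5.78% of Elf-1 KO cells and 3.02% of WT cells had a Tcf7 UMI, at median depths of 5298 and 3959 UMIs in the Elf-1 KO and WT libraries. With every cell thinned to 1000 UMIs, Tcf7 was found in 19.8% of 167 Elf-1 KO members and 45.8% of 271 WT members. The same order held in cells with UMIs of both Cd4 and Trac and none of the gamma constant genes Tcrg-C1, Tcrg-C2 and Tcrg-C4, with 27 of 87 Elf-1 KO cells and 84 of 133 WT cells.

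Genes of the Th17 programme were higher in Elf-1 KO members, led by the cytokines themselves. Il17a (chromosome 1, 20730905-20734496, plus strand, GRCm38) had 278 UMIs in 33 of 180 Elf-1 KO members and 43 UMIs in 5 of 295 WT members. These are 18.3% of Elf-1 KO members (13.0% to 24.8%) and 1.69% of WT members (0.553% to 3.91%), against 0.82% of Elf-1 KO fibroblasts and 0 of the WT fibroblasts. The level was 524 CPM in Elf-1 KO members and 67.8 CPM in WT members, 7.73-fold higher (5.59 to 10.9). With cells thinned to 1000 UMIs, Il17a was found in 13.8% of Elf-1 KO members and 1.85% of WT members. Il17f (chromosome 1, 20777146-20790617, minus strand), which encodes the partner that pairs with IL-17A, had 128 UMIs in 22 Elf-1 KO members and 4 UMIs in 2 WT members, 38.3-fold higher (14.6 to 143). Its share was 12.2% of Elf-1 KO members (7.82% to 17.9%) and 0.678% of WT members (0.0822% to 2.43%), intervals that cover counting error only. Il22, whose product acts on the epithelium, had 411 UMIs in 14 Elf-1 KO members and 102 UMIs in 9 WT members, 4.82-fold higher (3.87 to 6.05). A single Elf-1 KO cell of 4351 UMIs held 240 of the Il22 UMIs together with 57 of Il17a, 14 of Il17f and 70 of Il2. Without the top cell of each library Il22 stood at 171 UMIs in Elf-1 KO members and 76 in WT members. Neutrophils had 995 Il22 UMIs in the Elf-1 KO library and 0 in the WT library, and endothelial cells had 339 and 2. Regulatory T cells had 6 and 1, B cells 3 and 8, and CD8 T cells 0 and 1 in the Elf-1 KO and WT libraries. Gamma delta T cells had 0 in both libraries. A higher Il22 sum was thus not particular to the members, and its source in the other classes was not tested.

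The starts of Il17a and Il17f, neighbours on chromosome 1, are shown because these 2 genes lead the Th17 results. The windows run from 250 bases before to 50 bases after the annotated start (RefSeq, GRCm38.p6), and for Il17f the RefSeq start lies inside the span of the gene given above, which another annotation, GENCODE, draws further upstream. Capitals mark matches on either strand to AGGTCA, the half-site bound by nuclear receptors including ROR factors.
Il17a, chr1:20730655-20730954, plus strand: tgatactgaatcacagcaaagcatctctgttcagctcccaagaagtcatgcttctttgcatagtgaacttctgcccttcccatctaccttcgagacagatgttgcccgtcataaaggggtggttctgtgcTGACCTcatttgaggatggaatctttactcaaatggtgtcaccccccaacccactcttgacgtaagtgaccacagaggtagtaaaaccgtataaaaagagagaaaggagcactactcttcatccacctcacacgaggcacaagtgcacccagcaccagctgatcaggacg
Il17f, chr1:20784221-20784520, minus strand: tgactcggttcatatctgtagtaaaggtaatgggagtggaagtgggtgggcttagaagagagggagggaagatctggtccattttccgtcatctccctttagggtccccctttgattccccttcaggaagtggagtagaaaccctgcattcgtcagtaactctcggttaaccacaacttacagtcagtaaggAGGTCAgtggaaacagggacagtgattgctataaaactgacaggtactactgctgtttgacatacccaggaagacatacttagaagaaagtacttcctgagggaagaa
The match in Il17a is read on the opposite strand. The same letters stand in 16.3% of 32851 windows of this length and in 7 of the 20 Th17 list genes with a window, so a match describes the sequence only.

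Cells with Il17a UMIs are described by the other transcripts they held, of which Cd4, Trac and Izumo1r are genes of the gate. Of the 33 Elf-1 KO members with Il17a, 25 had a Cd4 UMI and 25 a Trac UMI. A UMI of a gamma constant gene was found in 6 of these 33, in 12 of the other 147 Elf-1 KO members and in 80 of 113 cells of the gamma delta gate in the same library. In cells with Cd4 and Trac UMIs and no gamma constant UMI, Il17a was found in 16 of 87 Elf-1 KO cells and 2 of 133 WT cells. Il17f was found in 14 of these Elf-1 KO cells and 1 of the WT cells. Il17f was detected in 12 of the 33 Il17a cells and in 10 of the other 147 Elf-1 KO members, and Il22 in 5 of the 33. Ifng was seen in 2 of the 33, and Izumo1r in 2 of the 33 but in 53 of the other 147. A cell admitted by Cd4 or Cd40lg needs no Izumo1r UMI, so the gate bears on this last contrast. A positive Elf-1 KO cell held between 1 and 57 Il17a UMIs with a median of 5, and the 5 positive WT cells between 1 and 18 with a median of 9. The number of positive cells differed, and the median count per positive cell was not higher in Elf-1 KO members.

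**Figure D2:**
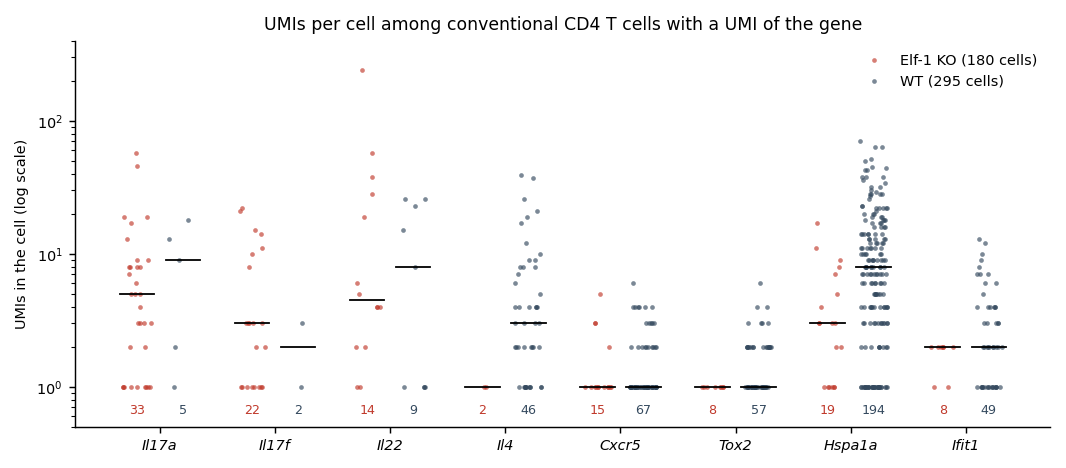
UMIs per cell of 8 genes among members with at least 1 UMI of the gene, on a log axis, in the Elf-1 KO library (left of each pair) and the WT library. Black bars are medians and the number under each column counts the positive cells, 33 and 5 for Il17a and 2 and 46 for Il4 in Elf-1 KO and WT members.

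Of the 23 genes of the Th17 list, 15 had at least 50 UMIs over both libraries. Of these 6 were at least 2-fold higher in Elf-1 KO members and 0 at least 2-fold lower, with a median log2 ratio of 0.75, where the median of all 3671 genes with 50 UMIs was 0.03, 6.86% of them were at least 2-fold higher and 4.93% at least 2-fold lower. Besides the 3 cytokines these were Furin, Ccr6 and Rora. Furin, a protease that T cells induce on activation, had 150 UMIs in 68 Elf-1 KO members and 40 UMIs in 26 WT members, 4.48-fold higher (3.15 to 6.53). Ccr6, the receptor that leads Th17 cells to CCL20, had 41 UMIs in 25 Elf-1 KO members and 18 UMIs in 11 WT members, 2.72-fold higher (1.53 to 5.04). Rora, which encodes one of the ROR factors of Th17 cells, had 75 UMIs in Elf-1 KO members and 42 UMIs in WT members, 2.13-fold higher (1.45 to 3.19). Receptors for the cytokines that sustain Th17 cells were below the limit of 50 UMIs. Il23r had 17 UMIs in Elf-1 KO members and 5 UMIs in WT members, and Il1r1 had 20 and 6 UMIs in Elf-1 KO and WT members. Batf and Irf4, factors shared by several helper subsets, differed little, with 307 and 284 CPM of Batf and 79.1 and 75.6 CPM of Irf4 in Elf-1 KO and WT members. In the members without markers of other classes, 177 Il17a UMIs remained in 90 Elf-1 KO cells and 28 UMIs in 271 WT cells, and Il17f had 36 and 4 UMIs in Elf-1 KO and WT cells. The median of the Th17 list was 0.07 in regulatory T cells, 0.58 in CD8 T cells and 1.81 in gamma delta T cells. It was 0.80 in B cells and -0.49 in fibroblasts, so a higher median was not particular to the members.

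**Figure D3:**
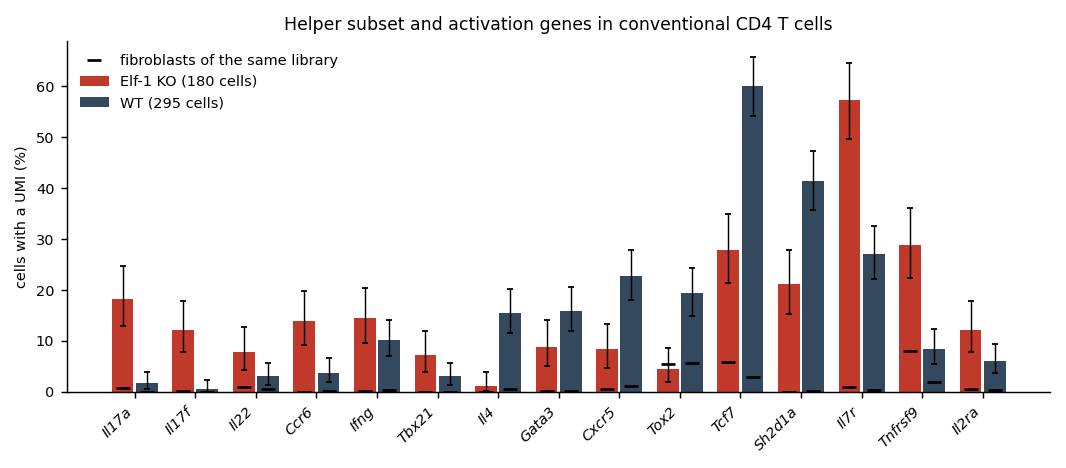
Share of members with a UMI of 15 helper subset and activation genes, in percent, in the Elf-1 KO library (left bar of each pair) and the WT library, with exact 95% intervals and black dashes at the share among fibroblasts of the same library. Il17a stands at 18.3% and 1.69% and Il4 at 1.11% and 15.6% in Elf-1 KO and WT members.

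Il4 was the gene with the lowest ratio among the genes named by rule. Il4 (chromosome 11, 53602982-53618669, minus strand) had 2 UMIs in 2 of 180 Elf-1 KO members and 305 UMIs in 46 of 295 WT members. This is 1.11% of Elf-1 KO members (0.135% to 3.96%) and 15.6% of WT members (11.7% to 20.3%), with 0.082% of Elf-1 KO and 0.518% of WT fibroblasts positive. The level was 3.77 CPM in Elf-1 KO members and 481 CPM in WT members, 128-fold lower with an interval of 35.0 to 1058. The WT signal was spread over many cells, with 34 of the 46 holding at least 2 UMIs and 39 of the 305 UMIs in the top cell. With cells thinned to 1000 UMIs, 1 of 167 Elf-1 KO members and 34 of 271 WT members had Il4. Among cells with Cd4 and Trac UMIs and no gamma constant UMI, 1 of 87 Elf-1 KO cells and 26 of 133 WT cells had Il4. The WT cell with 577 mast cell marker UMIs had 0 Il4 UMIs. In the WT members with Il4, 43 of 46 had Trac, 30 had Tcf7, 22 had Sh2d1a, 15 had Gata3 and 13 had Cxcr5, and 3 had Il13. Of the 249 WT members without Il4, 220 had Trac, 147 had Tcf7, 100 had Sh2d1a, 32 had Gata3, 54 had Cxcr5 and 0 had Il13. Under the alternatives the log2 ratio of Il4 ran between -7.80 and -5.16.

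The genes of the follicular helper list, Il4 included, lay below 0. Leaving out the gate genes Izumo1r and Cd40lg, 14 of its genes had at least 50 UMIs, of which 0 were at least 2-fold higher and 7 at least 2-fold lower in Elf-1 KO members, all 14 below 0, with a median log2 ratio of -0.97. With those 2 genes kept in the list, its median was -0.91 in regulatory T cells over 5 measured genes and -0.46 in fibroblasts over 9. It was -0.03 in B cells over 8 genes, 0.25 in CD8 T cells over 2 and 3.68 in gamma delta T cells over 3. Lower values were thus also seen outside the members. Cxcr5 (chromosome 9, 44511787-44561877, minus strand), the receptor that guides cells into follicles, had 24 UMIs in 15 Elf-1 KO members and 110 UMIs in 67 WT members. Its share was 8.33% of Elf-1 KO members and 22.7% of WT members, 3.83-fold lower by level (2.45 to 6.24), and 0.574% and 1.12% of Elf-1 KO and WT fibroblasts had a UMI. Tox2 (chromosome 2, 163203125-163324170, plus strand) and its relative Tox encode nuclear factors of follicular helper and chronically stimulated T cells. Tox2 had 8 UMIs in 8 Elf-1 KO members and 93 UMIs in 57 WT members, 9.72-fold lower (4.73 to 23.2), with 4.44% of Elf-1 KO members and 5.58% of the deeper Elf-1 KO fibroblasts positive. With cells thinned to 1000 UMIs, 1.80% of Elf-1 KO and 12.9% of WT members and 1.19% of Elf-1 KO and 1.45% of WT fibroblasts had a Tox2 UMI. Tox had 6 UMIs in 5 Elf-1 KO members and 65 UMIs in 47 WT members, 9.06-fold lower (3.94 to 25.6). Its level was also 4.80-fold lower in Elf-1 KO fibroblasts, 3.10-fold lower in CD8 T cells and 1.46-fold lower in regulatory T cells. In gamma delta T cells it was 2.03-fold higher. Sostdc1, a secreted BMP and Wnt antagonist, had 7 UMIs in 2 Elf-1 KO members and 88 UMIs in 17 WT members, 10.5-fold lower (4.89 to 26.9). Sh2d1a, the adaptor SAP that follicular helper cells need to stay with B cells, had 62 UMIs in 38 Elf-1 KO members and 244 UMIs in 122 WT members, 3.29-fold lower (2.48 to 4.42). Tnfsf8, the ligand of CD30, had 58 UMIs in Elf-1 KO members and 145 UMIs in WT members, 2.09-fold lower (1.53 to 2.89).

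Several genes often used to define follicular helper cells differed less. Pdcd1, the checkpoint receptor PD-1, had 46 UMIs in 26 Elf-1 KO members and 60 UMIs in 35 WT members, 86.7 CPM in Elf-1 KO members and 94.5 CPM in WT members. Icos, a costimulatory receptor, had 401 CPM in Elf-1 KO members and 616 CPM in WT members. Maf had 605 CPM in Elf-1 KO members and 673 CPM in WT members. Bcl6, the gene for the master factor of the subset, was found in 6.67% of Elf-1 KO and 11.2% of WT members and in 15.8% of the deeper Elf-1 KO fibroblasts. Thinned to 1000 UMIs, 2.40% of Elf-1 KO members and 5.90% of WT members (3.41% to 9.41%) had a Bcl6 UMI, beside 3.49% of Elf-1 KO and 3.27% of WT fibroblasts and 4.63% of Elf-1 KO and 5.46% of WT neutrophils, so no difference is read from it. Il21 was sparse, with 15 UMIs in 6 Elf-1 KO members and 24 UMIs in 16 WT members. Within the WT library, Tox2 was found in 24 of 67 cells with Cxcr5 and 33 of 228 without, and Tcf7 in 53 of the 67. In the 90 Elf-1 KO and 271 WT cells without markers of other classes, Il4 kept 2 and 269 UMIs, Cxcr5 9 and 98 and Tox2 4 and 86 UMIs in Elf-1 KO and WT cells.

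The Th2 and Th1 cytokines gave a mixed picture. Gata3, the factor of Th2 cells that other T cells also use, had 19 UMIs in 16 Elf-1 KO members and 100 UMIs in 47 WT members, 4.40-fold lower (2.68 to 7.62). Il13 had 0 UMIs in 180 Elf-1 KO members, which at 3 counts allows up to 1.67% of cells with a UMI, and 6 UMIs in 3 WT members. Il5 had 0 UMIs in Elf-1 KO members, with the same limit, and 5 UMIs in 4 WT members, so neither gene showed a difference that this depth can resolve. Il10, a cytokine that restrains inflammation, had 180 UMIs in 29 Elf-1 KO members and 137 UMIs in 31 WT members, 1.57-fold higher (1.25 to 1.98). Ifng, the Th1 cytokine, had 105 UMIs in 26 Elf-1 KO members (14.4%) and 99 UMIs in 30 WT members (10.2%), 198 CPM in Elf-1 KO members and 156 CPM in WT members with an interval of the ratio that spans 1 (0.955 to 1.69). Tbx21, the gene of the Th1 factor T-bet, had 15 UMIs in 13 Elf-1 KO members and 13 UMIs in 9 WT members. Of the Tbx21 cells, 8 of 13 in the Elf-1 KO library and 3 of 9 in the WT library also had Ifng.

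Of 12 measured Th1 list genes, 2 were at least 2-fold higher and 1 at least 2-fold lower, with a median of 0.30. The higher ones were Gzmb, a granule protease, at 124 UMIs in 23 Elf-1 KO members and 51 UMIs in 15 WT members, and Il18r1, an IL-18 receptor chain, at 38 UMIs in Elf-1 KO members and 17 UMIs in WT members. The lower one, the chemokine Ccl5, rested in part on 1 WT cell that held 116 of 368 WT UMIs, with 133 UMIs in Elf-1 KO members, and its log2 ratio was -1.21 with that cell and -0.82 without the top cell of each library. Il2 had 72 UMIs in 3 Elf-1 KO members, 70 of them in the cell rich in Il22, and 29 UMIs in 8 WT members. Csf2, which encodes GM-CSF, had 0 UMIs in Elf-1 KO members and 1 UMI in WT members.

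Several genes of activated and effector memory cells were higher in Elf-1 KO members. Of 25 measured genes of that list, 8 were at least 2-fold higher and 2 at least 2-fold lower, with a median of 0.72. Tnfrsf9, the costimulatory receptor 4-1BB, had 157 UMIs in 52 Elf-1 KO members (28.9%) and 34 UMIs in 25 WT members (8.47%), 5.52-fold higher (3.79 to 8.25), and 8.08% of Elf-1 KO and 1.98% of WT fibroblasts had a UMI. Il2ra, the high-affinity IL-2 receptor chain, had 106 UMIs in 22 Elf-1 KO members and 31 UMIs in 18 WT members, 4.09-fold higher (2.72 to 6.32). In the Elf-1 KO library 21 of the 52 Tnfrsf9 cells had Il2ra, and in the WT library 5 of 25. Il2rb had 411 CPM in Elf-1 KO members and 178 CPM in WT members, and Tnfrsf18, which encodes GITR, 512 and 214 CPM in Elf-1 KO and WT members. Lgals1, the gene of galectin 1, had 1398 CPM in Elf-1 KO members and 608 CPM in WT members. S100a4, Vim and Itgb1 were the other members of the list past 2-fold higher, and Ccl5 and Tnfsf8 were those past 2-fold lower. Of the 25 measured genes, 15 stood at 10 times the background bound or more in the library where they were higher. Of all 3671 measured genes, 782 did so. A gene meets this limit through the library where it is high, so the count is no support for a difference. The part that RNA of other cells has in Lgals1, S100a4, Vim and Itgb1 was not tested. Without cells carrying markers of other classes, Tnfrsf9 had 47 UMIs in Elf-1 KO cells and 31 UMIs in WT cells and a log2 ratio of 2.37, while Il2ra had 17 and 31 UMIs in Elf-1 KO and WT cells and a log2 ratio of 0.90. With thinned cells the log2 ratio of Tnfrsf9 was 1.59, against 2.47 in all members. The gate removed cells with a Foxp3 UMI, 77 of 267 that met its positive part in the Elf-1 KO library and 39 of 360 in the WT library, and regulatory T cells in which Foxp3 went undetected can remain among the members. Of the regulatory T cell marker list, 7 of 11 genes were measured in the members, 2 at least 2-fold higher (Il2ra and Tnfrsf18) and 1 at least 2-fold lower (Ikzf2), with a median of 0.65. The list summed to 3490 CPM in Elf-1 KO members and 2294 CPM in WT members, with Foxp3 at 0 in both by the gate. In gated regulatory T cells, Il2ra was found in 65.3% of Elf-1 KO and 40.7% of WT cells. The part of such cells in these results was not tested. Cd44 and Cd69, general markers of antigen experience and recent activation, differed little, with 170 and 161 CPM of Cd44 and 1053 and 1273 CPM of Cd69 in Elf-1 KO and WT members.

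The naive and recirculating programme did not move as 1 block. Of 15 measured genes, 1 was at least 2-fold higher and 3 at least 2-fold lower, with a median of -0.62. The 3 lower were Tcf7, Actn1 and Foxp1, a factor that keeps T cells quiescent, which had 71.6 CPM in Elf-1 KO members and 151 CPM in WT members. Rasgrp2, which activates the integrin switch Rap1, was the higher one, at 43 UMIs in Elf-1 KO members and 25 UMIs in WT members. Il7r, the receptor for the survival cytokine IL-7, also lay above 0, with 271 UMIs in 103 Elf-1 KO members (57.2%) and 166 UMIs in 80 WT members (27.1%), 1.95-fold higher (1.60 to 2.38). Ccr7, a receptor for entry into lymph nodes, had 394 CPM in Elf-1 KO members and 605 CPM in WT members. Klf2, which maintains recirculation, had 1519 CPM in Elf-1 KO members and 2625 CPM in WT members.

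T cell receptor signalling genes tended to lie lower in Elf-1 KO members. Of 27 measured, 0 were at least 2-fold higher and 7 at least 2-fold lower, 21 lay below 0 and the median was -0.54. The list's median was -0.46 in regulatory T cells, -0.23 in CD8 T cells and -0.21 in gamma delta T cells. It was -0.46 in B cells and -0.38 in fibroblasts, where the medians of all genes were -0.22 and -0.32. A lower median was thus not particular to the members. Nfatc1, a calcium-responsive factor, had 24 UMIs in 22 Elf-1 KO members and 119 UMIs in 69 WT members, 4.15-fold lower (2.66 to 6.73). Tespa1 had 24 UMIs in Elf-1 KO members and 110 UMIs in WT members, and Themis, an adaptor of the receptor, had 20 and 67 UMIs in Elf-1 KO and WT members. Ptprc, the phosphatase CD45, had 867 CPM in Elf-1 KO members and 1900 CPM in WT members, 2.19-fold lower (1.97 to 2.45). Ptpn6, Egr2 and Nr4a3 were the other 3. The kinases Lck and Zap70 differed less, with 494 and 785 CPM of Lck and 226 and 307 CPM of Zap70 in Elf-1 KO and WT members. Nr4a1, an immediate target of receptor signals, had 1707 CPM in Elf-1 KO members and 1588 CPM in WT members. Of the 7 T cell receptor and CD3 list genes outside the gate, Trbc1 was past 2-fold lower, with 282 UMIs in Elf-1 KO members and 676 UMIs in WT members, and the median was -0.62.

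Cell cycle genes were higher in Elf-1 KO members taken as a whole, while the list's median lay below 0 in the cells free of other markers. Of 20 measured, 7 were at least 2-fold higher and 0 at least 2-fold lower, with a median of 0.71. Mki67, a marker of cycling cells, had 109 UMIs in 27 Elf-1 KO members (15.0%) and 46 UMIs in 21 WT members (7.12%), 2.83-fold higher (1.99 to 4.09). Ccnb2, a mitotic cyclin, had 160 UMIs in 21 Elf-1 KO members and 41 UMIs in 11 WT members, 4.67-fold higher (3.29 to 6.75). With the cells carrying markers of other classes left out, the median was -0.29 over 10 measured genes, and Ccnb2 had 5 UMIs in 90 Elf-1 KO cells and 38 UMIs in 271 WT cells. Mki67 did not turn, with a log2 ratio between 0.63 and 2.56 under the alternatives, this one included. The part that other cells in the same barcode have in this result was not tested beyond that.

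**Figure D4:**
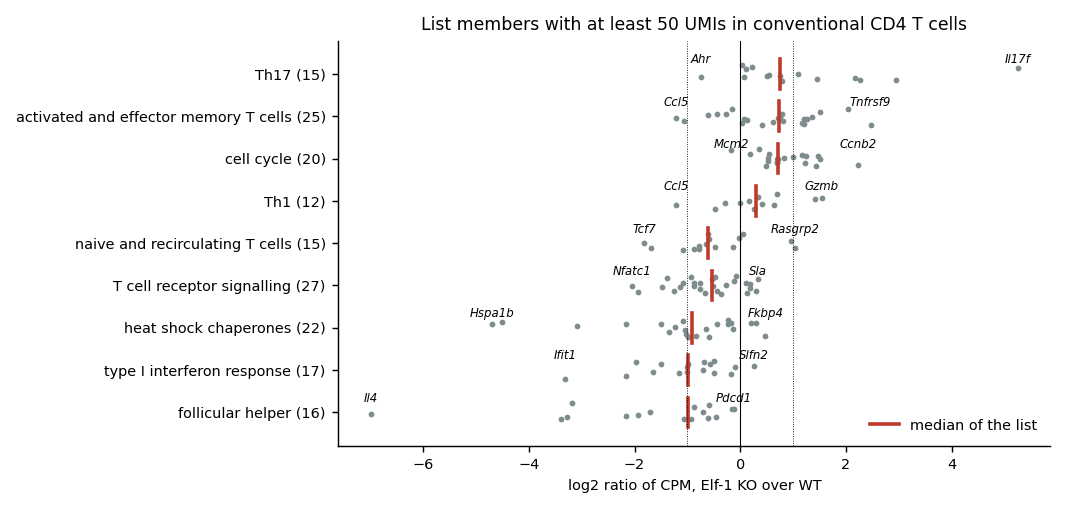
Log2 ratio of CPM, Elf-1 KO over WT, for every gene with at least 50 UMIs in 9 lists, with the lowest and highest gene of each list named, a red bar at the list's median and dotted lines at 2-fold. Th17, activation and cell cycle genes have medians of 0.75, 0.72 and 0.71, and heat shock, type I interferon and follicular helper genes medians of -0.91, -0.99 and -0.99 (the last with the gate genes Izumo1r and Cd40lg).

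Several heat shock chaperones were lower in Elf-1 KO members. Hspa1a (chromosome 17, 34969190-34972156, minus strand) and Hspa1b (34956436-34959238, minus strand) are near-identical genes for the inducible chaperone HSP70, so reads can be split between them and their separate values are uncertain. Hspa1a had 83 UMIs in 19 Elf-1 KO members (10.6%) and 2259 UMIs in 194 WT members (65.8%), 22.8-fold lower (18.3 to 28.7). Hspa1b had 31 UMIs in 14 Elf-1 KO members and 968 UMIs in 186 WT members, 26.1-fold lower (18.3 to 38.6). Hspa1a was also found in 10.8% of Elf-1 KO and 25.7% of WT neutrophils and 53.3% of Elf-1 KO and 86.5% of WT fibroblasts, so no class serves as a blank, and in Elf-1 KO members it lay at 1.97 times the background bound. Of 22 measured chaperone genes, 0 were at least 2-fold higher and 10 at least 2-fold lower, with a median of -0.91. Hsph1, an exchange factor for HSP70, had 50.9 CPM in Elf-1 KO members and 432 CPM in WT members, 8.49-fold lower (5.71 to 13.1). Dnajb1, its HSP40 partner, had 230 CPM in Elf-1 KO members and 1037 CPM in WT members, and Hspa8, the constitutive HSP70, had 2598 CPM in Elf-1 KO members and 5509 CPM in WT members. The endoplasmic reticulum chaperones Hsp90b1 and Hspa5 differed little, with 398 and 347 CPM of Hsp90b1 and 1332 and 1569 CPM of Hspa5 in Elf-1 KO and WT members.

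The windows at the starts of the pair are shown because they carry the lowest chaperone ratios. Capitals mark GAANNTTC, the paired core of a heat shock element (RefSeq, GRCm38.p6, 250 bases before to 50 after the start).
Hspa1a, chr17:34972107-34972406, minus strand: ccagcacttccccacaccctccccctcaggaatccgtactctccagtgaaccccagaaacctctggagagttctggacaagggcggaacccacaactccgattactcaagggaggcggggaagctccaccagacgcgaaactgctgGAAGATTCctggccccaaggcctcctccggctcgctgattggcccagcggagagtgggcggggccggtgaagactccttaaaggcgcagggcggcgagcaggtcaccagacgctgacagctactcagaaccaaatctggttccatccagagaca
Hspa1b, chr17:34959189-34959488, minus strand: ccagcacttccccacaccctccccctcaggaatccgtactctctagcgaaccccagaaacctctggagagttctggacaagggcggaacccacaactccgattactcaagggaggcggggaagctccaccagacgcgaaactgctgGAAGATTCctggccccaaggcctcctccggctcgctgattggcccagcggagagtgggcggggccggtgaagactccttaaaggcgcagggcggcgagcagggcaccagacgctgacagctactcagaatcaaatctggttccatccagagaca
The windows are alike at 296 of 300 bases. The motif, read on both strands, stands in 7.86% of 32851 windows and in 11 of the 20 chaperone genes with a window.

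The heat shock genes lay lower in the other gated cells too. The list's median was -0.36 in regulatory T cells, -0.73 in CD8 T cells, -0.81 in gamma delta T cells, -1.39 in B cells and -0.53 in fibroblasts. Hspa1a had 57.8 CPM in Elf-1 KO and 1420 CPM in WT regulatory T cells, and 116 CPM in Elf-1 KO and 2219 CPM in WT CD8 T cells. No call of a difference between classes was possible with 1 library per group, and the 2 libraries' preparation cannot be told apart from genotype.

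Type I interferon response genes were lower in Elf-1 KO members as well. Of 17 measured, 0 were at least 2-fold higher and 8 at least 2-fold lower, with a median of -0.99 and 16 below 0. Ifit1 (chromosome 19, 34640871-34650009, plus strand), whose product binds viral RNA, had 14 UMIs in 8 Elf-1 KO members (4.44%) and 166 UMIs in 49 WT members (16.6%), 9.92-fold lower (5.75 to 18.5), with 1.31% of Elf-1 KO and 7.68% of WT fibroblasts positive. Its log2 ratio of -3.31 was -1.73 where the gate was applied to cells thinned to 1000 UMIs, with 22 UMIs in Elf-1 KO and 112 UMIs in WT cells. Without cells carrying markers of other classes it had 7 UMIs in 90 Elf-1 KO cells and 137 UMIs in 271 WT cells. Isg15 (chromosome 4, 156199424-156200818, minus strand), a ubiquitin-like modifier, had 98 UMIs in 49 Elf-1 KO members (27.2%) and 523 UMIs in 125 WT members (42.4%), 4.46-fold lower (3.59 to 5.60). In WT members 43 of the 49 Ifit1 cells also had Isg15, and in Elf-1 KO members 7 of 8. Rtp4 had 35.8 CPM in Elf-1 KO members and 140 CPM in WT members. Slfn1, Ifi47, Trim30a, Zbp1 and Parp14 were the other 5 past 2-fold. Irf9, a factor that carries the interferon signal, had 54.6 CPM in Elf-1 KO members and 58.3 CPM in WT members.

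The starts of Ifit1 and Isg15, the pair with the lowest ratios in that list, are shown with capitals at 2 copies of GAAA separated by 2 bases, the core of the interferon-stimulated response element, on either strand (RefSeq, GRCm38.p6, 250 bases before to 50 after the start).
Ifit1, chr19:34640639-34640938, plus strand: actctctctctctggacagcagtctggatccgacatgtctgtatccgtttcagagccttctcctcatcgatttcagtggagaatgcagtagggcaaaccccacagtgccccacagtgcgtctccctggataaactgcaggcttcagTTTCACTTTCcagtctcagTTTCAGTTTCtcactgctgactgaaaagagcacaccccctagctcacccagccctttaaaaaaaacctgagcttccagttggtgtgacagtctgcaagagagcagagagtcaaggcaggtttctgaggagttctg
Isg15, chr4:156200769-156201068, minus strand: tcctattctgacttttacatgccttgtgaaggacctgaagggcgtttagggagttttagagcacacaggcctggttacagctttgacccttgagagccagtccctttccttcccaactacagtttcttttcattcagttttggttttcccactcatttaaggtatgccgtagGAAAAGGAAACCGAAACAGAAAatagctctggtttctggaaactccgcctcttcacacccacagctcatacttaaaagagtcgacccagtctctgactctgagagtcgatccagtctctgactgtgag
Ifit1 has 2 matches, read on the opposite strand, and Isg15 3 that overlap. The motif stands in 3.44% of 32851 windows and in 15 of the 26 list genes with a window. The median of the list was -0.70 in regulatory T cells, -0.73 in CD8 T cells, -0.62 in B cells and -1.90 in fibroblasts, so lower values were seen across classes.

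Among the 12 highest ratios named by rule, Il17f was the only T cell cytokine. The other 11 were Saa3, Csf3, Mmp3, Serpine2, Ccl11, Mt1, Mt2, Cxcl5, Ccl2, Cxcl1 and Il11, which are metallothioneins and genes known mainly from stroma, epithelium or myeloid cells. Saa3, an acute phase protein, had 2420 UMIs in 149 Elf-1 KO members and 43 UMIs in 38 WT members. These 11 lay between 1.19 and 7.93 times the background bound in Elf-1 KO members, and are not read as T cell expression. Csf3 had 89 UMIs in Elf-1 KO members and 0 in WT members, at least 35.5-fold higher with 3 counts over the library taken for 0, and 28.3-fold at the lower end of the counting interval. Lypd8, an epithelial gene, had 0 UMIs in Elf-1 KO members and 94 UMIs in WT members, at least 26.2-fold lower with the same floor and 20.9-fold at the lower end of the interval, and stood at 1.65 times the bound in WT members.

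A second naming, chosen after the values were seen, kept genes at 10 times that bound or more in the library where they were higher. Of 782 such genes, 9.72% were at least 2-fold higher and 12.3% at least 2-fold lower in Elf-1 KO members. Among all 3671 genes the shares were 6.86% higher and 4.93% lower. A gene enters through the library where it is high, which can raise these shares, so they are no support for a difference. The bound is the lowest of 6 classes, so genes rich in other cells can pass it. Besides Il17f, Il17a, Tnfrsf9, Ccnb2, Furin and Il2ra, the 12 highest of this naming were Plin2, Il1r2, Nmrk1, Neb, Dgat1 and Serpinb6b. Il1r2, the decoy receptor for IL-1, had 282 UMIs in 49 Elf-1 KO members and 57 UMIs in 32 WT members, 5.92-fold higher (4.44 to 8.01). It was also found in 84.0% of Elf-1 KO and 89.3% of WT neutrophils and in 57.9% of Elf-1 KO and 32.2% of WT regulatory T cells. In gamma delta T cells its level was 349 CPM in the Elf-1 KO library and 21.8 CPM in the WT library. Plin2, a coat protein of lipid droplets, had 83 UMIs in 29 Elf-1 KO members and 12 UMIs in 8 WT members, 8.27-fold higher (4.49 to 16.6). It was also found in 47.7% of Elf-1 KO and 22.7% of WT fibroblasts and in 36.6% of Elf-1 KO and 28.6% of WT neutrophils. Its log2 ratio of 3.05 was 1.53 where the gate was applied to thinned cells, with 17 UMIs in Elf-1 KO and 9 UMIs in WT cells, and 4.18 where a Cd4 UMI was required. Dgat1, which makes the triglyceride stored in such droplets, had 195 UMIs in 83 Elf-1 KO members (46.1%) and 54 UMIs in 33 WT members (11.2%), 4.32-fold higher (3.18 to 5.95). In the cells without markers of other classes Dgat1 had 81 UMIs in 90 Elf-1 KO cells and 49 UMIs in 271 WT cells. Regulatory T cells with a Dgat1 UMI were 63.2% in the Elf-1 KO library and 33.9% in the WT library, and with a Neb UMI 42.1% and 27.1%. Gamma delta T cells had 461 CPM of Dgat1 in the Elf-1 KO library and 94.6 CPM in the WT library, so these genes were not particular to the members.

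The lowest of these genes, besides those of the heat shock, interferon and follicular helper lists, were Evl, Clec2i, Dennd2d, Cd96 and Frat2. Dennd2d, a protein with a DENN domain, had 26 UMIs in 21 Elf-1 KO members (11.7%) and 192 UMIs in 104 WT members (35.3%), 6.17-fold lower (4.09 to 9.70). Evl, a regulator of actin filaments, had 14 UMIs in 11 Elf-1 KO members and 115 UMIs in 75 WT members, 6.87-fold lower (3.93 to 13.0). Cd96, a receptor of T and NK cells, had 12 UMIs in 11 Elf-1 KO members and 76 UMIs in 56 WT members, 5.30-fold lower (2.86 to 10.7). Without cells carrying markers of other classes Dennd2d had 12 and 184 UMIs and Evl 5 and 111 UMIs in Elf-1 KO and WT cells. In CD8 T cells Evl was 2.20-fold and Cd96 3.64-fold lower in the Elf-1 KO library, while Frat2 was 1.42-fold higher. In gamma delta T cells Evl was 5.57-fold and Dennd2d 3.45-fold lower, and in fibroblasts Dennd2d was 4.04-fold lower. Lower values of Evl, Dennd2d and Cd96 were thus not particular to the members.

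Receptors for homing and adhesion showed no common direction. Of 18 measured genes of that list, 3 were at least 2-fold higher and 2 at least 2-fold lower, with a median of 0.04. Ccr2, which draws cells into inflamed tissue, had 81 UMIs in 33 Elf-1 KO members and 39 UMIs in 18 WT members, 2.48-fold higher (1.67 to 3.74). Itgal, the alpha chain of the integrin LFA-1, had 55 UMIs in 39 Elf-1 KO members and 156 UMIs in 99 WT members, 2.37-fold lower (1.73 to 3.29). Itgb7, the beta chain of the gut homing integrin, stood at 254 CPM in members of both libraries. Of 12 measured tissue residence genes none was past 2-fold, with a median of 0.17, and Cxcr6, a receptor of resident T cells, had 130 CPM in Elf-1 KO members and 67.8 CPM in WT members.

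Several other programmes had few genes past 2-fold. Of 62 measured nuclear genes of oxidative phosphorylation, 0 were at least 2-fold higher and 1 at least 2-fold lower, 50 lay above 0 and the median was 0.21. Of 19 hypoxia and glycolysis genes none was past 2-fold, with a median of 0.10. Of 20 MHC class I and peptide loading genes 1 was at least 2-fold lower, the proteasome subunit Psmb10, with 82.9 CPM in Elf-1 KO members and 169 CPM in WT members, and 15 of the 20 lay below 0 with a median of -0.41. Of 20 NF-kB genes 3 were at least 2-fold higher, with a median of 0.15. Of these Bcl2a1d, a survival gene of the BCL2 family with near-identical neighbours that can share its reads, had 237 CPM in Elf-1 KO members and 110 CPM in WT members, while Nfkb2 and Bcl3 lay within 3 times the background bound. The checkpoint receptors Ctla4 and Lag3 were both below 2-fold, with 750 and 695 CPM of Ctla4 and 117 and 187 CPM of Lag3 in Elf-1 KO and WT members.

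Elf1 transcripts (chromosome 14, 79481194-79582494, plus strand) were present in both libraries. Elf1 had 252 UMIs in 112 Elf-1 KO members (62.2%) and 367 UMIs in 169 WT members (57.3%), 475 CPM in Elf-1 KO members and 578 CPM in WT members, a log2 ratio of -0.28. In the 90 Elf-1 KO and 271 WT cells without markers of other classes the log2 ratio was 0.16. Since the deleted part is not given, reads from the rest of the gene may be counted and the level checks neither the label nor the deletion.

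Side by side with the other gated T cells, the values of several genes of the Elf-1 KO and WT members differed in size, which could not be tested. Il17a was found in 56.6% of Elf-1 KO and 2.86% of WT gamma delta T cells, in 4.21% and 3.39% of Elf-1 KO and WT regulatory T cells, and in 2.08% of Elf-1 KO and 0 of the WT CD8 T cells. Tcf7 had 99.9 CPM in Elf-1 KO and 266 CPM in WT CD8 T cells, 56.3 and 116 CPM in Elf-1 KO and WT gamma delta T cells, and 31.0 and 30.1 CPM in Elf-1 KO and WT regulatory T cells, the last from only 15 and 5 UMIs in the Elf-1 KO and WT libraries. Il7r had 321 CPM in Elf-1 KO and 114 CPM in WT CD8 T cells, 518 and 80.1 CPM in Elf-1 KO and WT gamma delta T cells, and 273 and 313 CPM in Elf-1 KO and WT regulatory T cells. Tnfrsf9 had 684 CPM in Elf-1 KO and 722 CPM in WT regulatory T cells, 509 CPM in Elf-1 KO and 43.7 CPM in WT gamma delta T cells (11.7-fold higher, 5.26 to 32.2), and 46.8 CPM in Elf-1 KO and 33.0 CPM in WT CD8 T cells. Il4 had 0 UMIs in regulatory T cells of both libraries, 0 UMIs in Elf-1 KO and 2 UMIs in WT CD8 T cells, and 1 UMI in Elf-1 KO and 0 UMIs in WT gamma delta T cells. Receptor variable genes were too sparse to describe usage, with 16 Trbv UMIs in Elf-1 KO members and 44 in WT members, of which Trbv12-2 had 8 in Elf-1 KO members and 8 in WT members.

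**Figure D5:**
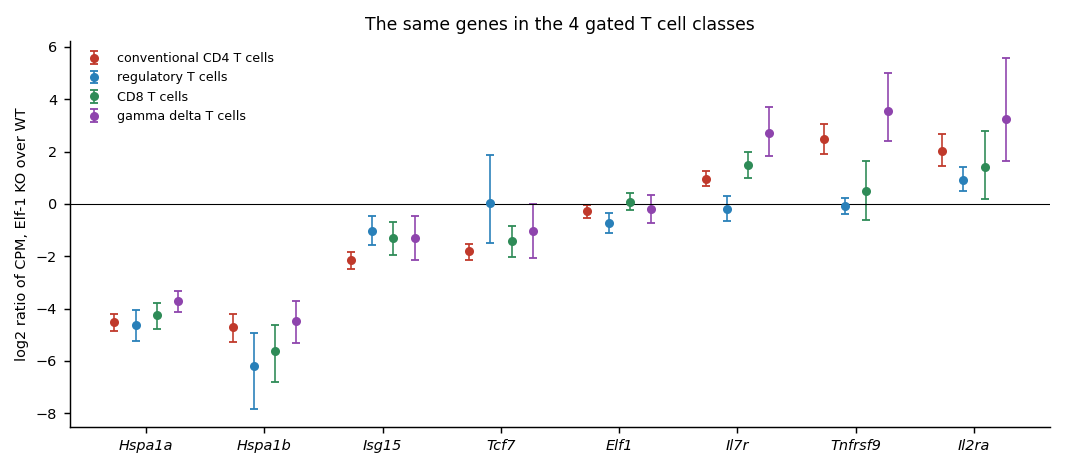
Log2 ratio of CPM, Elf-1 KO over WT, for 8 genes in 4 gated T cell classes, with exact 95% intervals that cover counting error only. Hspa1a lies near -4.51 in conventional CD4 T cells, -4.62 in regulatory T cells, -4.26 in CD8 T cells and -3.71 in gamma delta T cells, and Tnfrsf9 at 2.47 in conventional CD4 T cells and -0.08 in regulatory T cells.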

How the data were processed

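The 2 single-cell libraries were deposited as counts, whole UMIs for each gene in each barcode, and per the labels and the files the authors had not scaled them. Cutadapt 1.17, STAR 2.6.1a, featureCounts 2.0.1 and GRCm38 are named in the submitters' processing notes. Genes listed in both matrices, 23197, were compared. UMIs were summed over members and divided by the library's member total, with exact Poisson intervals for levels, conditional binomial intervals for ratios and Clopper-Pearson intervals for shares, all at 95% (python 3.11.15, scipy 1.17.1, pandas 2.3.3). Ratios used genes with at least 50 UMIs, past 2-fold is a rule of size, and a count of 0 was taken as 3. The 12 highest and lowest ratios were named among genes with a UMI in at least 10% of members of a library. Thinning to 1000 UMIs left out 13 Elf-1 KO and 24 WT members. Doublets (scrublet in scanpy 1.11.5, expected rate 0.06) were not removed. The caller marked 2.67% of Elf-1 KO and 0.0246% of WT barcodes, so the top 5% by score, 406 barcodes, stood in for WT where doublets were left out. TMM factors came from edgeR 4.0.16. The method was tested on simulated data. Members and lists were chosen with earlier results of these data known. Results on some genes are not reported here.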

Additional observations from a re-analysis of the deposited data

How the results depend on the processing

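No paired analysis was possible because each group has 1 library. The medians of the follicular helper (-1.06 to -0.84), Th17 (0.55 to 1.20), heat shock (-1.21 to -0.75) and type I interferon (-1.23 to -0.70) lists kept their sign under 12 alternatives. The follicular helper range includes the gate genes Izumo1r and Cd40lg, and the alternatives were not run without them. The share ratio was 0.671 with a Cd4 UMI required and 0.277 without cells carrying other classes' markers, against 0.509. Genes at least 2-fold higher numbered 252, and 116 without those cells, 640 and 49 at minimums of 20 and 200 UMIs, and 78 with thinned cells. Genes at least 2-fold lower numbered 181, and 109 with a Cd4 UMI required, 522 and 36 at those minimums, and 72 with thinned cells. Stricter minimums and fewer UMIs test fewer genes by construction. Without cells carrying other classes' markers the cell cycle median was -0.29 and the log2 ratio of Ccnb2 -1.16. Without its top cell in each library, an alternative added after seeing the data, Il2 had a log2 ratio of -2.65. Ratios of CPM that moved by over 1.5 times kept the sign of their log2 value for Il17a (2.91 to 4.43), Il17f (4.40 to 6.99), Il22 (1.43 to 4.12), Cxcr5 (-2.60 to -1.07), Tox2 (-4.53 to -2.66), Tox (-4.21 to -2.00), Il2ra (0.90 to 2.14), Mki67 (0.63 to 2.56), Hspa1a (-4.79 to -3.67), Dennd2d (-2.75 to -1.98), Evl (-2.94 to -2.14) and Cd96 (-3.47 to -1.97). The log2 ratios of Ifng (-0.69 to 1.22) and Il21 (-0.96 to 1.05) took both signs. The causes were not tested. Depth limits the sparse genes, such as Bcl6, Il21 and Tbx21.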
